A study of Mus musculus with 17 samples.

Results

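Genome activation in the mouse embryo was examined by setting 3 arrays of 2-cell embryos against 3 arrays of 1-cell embryos, from a series of 17 Affymetrix MG-U74Av2 arrays that runs from the oocyte to the blastocyst. All 12422 probe sets that were not controls were taken, of 12488 on the array, and 1 probe set for each gene gave 8251 genes. A probe set is a group of short oligonucleotides that together read 1 transcript, and its signal is a fluorescence intensity on a linear scale. Per the labels, total RNA of either stage was amplified by 2 rounds of in vitro transcription, and stage was the only difference recorded between the groups. The labels state no strain, hour of collection or number of embryos in a sample, and do not say whether samples came from separate animals. A p-value or standard error here rests on the spread of all 17 arrays about their stage means, so arrays of the stages not compared contribute to it. It therefore reflects the spread between the arrays of this series alone, which may be technical. With 3 arrays at either stage compared, the number of arrays limits the precision. Among transcripts that mark the egg and early embryo, that of Dppa3, a maternal protein that protects the methylation of the egg's genome, was bright at either stage. Its signal was 6192, 5583 and 6021 on the 2-cell arrays, against 8724, 6897 and 6718 on the 1-cell arrays.

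After fertilisation the embryo first lives on RNA and protein that the egg has stored. In the mouse a minor wave of transcription starts late in the 1-cell embryo, and the main wave comes in the 2-cell embryo, while stored maternal mRNA is broken down. A rise at this step is therefore commonly read as new transcription and a fall as loss of maternal RNA, although an array measures only the level of each transcript relative to the others.

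Promoter windows of genes that changed are shown first, because this is the step at which the embryo's promoters come into use. RefSeq sequence (GRCm38.p6) from 250 bases before the start to the base before it was searched on both strands for 10 short motifs, each spelt out. A window was matched for 1284 of the 1574 genes called higher in 2-cell embryos and for 1099 of the 1322 called lower. The 4 windows printed here belong to genes described below. Prps1 (chrX:140456353-140456602, plus strand) makes the precursor of nucleotides, and Nhp2 (chr11:51619523-51619772, plus strand) is a protein of the RNA-modifying H/ACA particles. Their capitals mark CCGGAAG, a site of ETS family factors. Hspa1b (chr17:34959239-34959488, minus strand) is an inducible heat shock protein, and its capitals mark the heat shock element core GAANNTTC. Zp3 (chr5:135979855-135980104, plus strand) encodes a sperm-binding protein of the egg coat, and its capitals mark the E-box CACGTG.
Prps1: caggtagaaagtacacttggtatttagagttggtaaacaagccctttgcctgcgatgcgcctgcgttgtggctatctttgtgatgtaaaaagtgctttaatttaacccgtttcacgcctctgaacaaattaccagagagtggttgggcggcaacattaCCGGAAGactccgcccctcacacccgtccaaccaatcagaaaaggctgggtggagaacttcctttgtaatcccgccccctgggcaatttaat
Nhp2: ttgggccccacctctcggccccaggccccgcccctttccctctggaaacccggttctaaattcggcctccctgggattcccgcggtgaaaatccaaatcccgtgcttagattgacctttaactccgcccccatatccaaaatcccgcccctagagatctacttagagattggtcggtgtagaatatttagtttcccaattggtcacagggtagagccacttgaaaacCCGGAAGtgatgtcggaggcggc
Hspa1b: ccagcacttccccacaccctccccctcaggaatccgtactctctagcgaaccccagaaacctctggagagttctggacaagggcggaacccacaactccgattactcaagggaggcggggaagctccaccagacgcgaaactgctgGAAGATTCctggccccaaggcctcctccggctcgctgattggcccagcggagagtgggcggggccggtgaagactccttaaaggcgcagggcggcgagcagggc
Zp3: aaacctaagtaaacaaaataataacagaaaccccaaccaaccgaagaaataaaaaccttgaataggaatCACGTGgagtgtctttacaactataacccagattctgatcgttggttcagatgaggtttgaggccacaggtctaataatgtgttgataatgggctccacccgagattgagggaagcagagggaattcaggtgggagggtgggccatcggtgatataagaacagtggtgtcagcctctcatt

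The windows of genes called higher and of genes called lower were alike in composition, with a median GC content of 59.6% in the higher genes, 60.8% in the lower genes and 52.0% over all 27025 RefSeq windows of that length, 1 for each gene. The ETS site CCGGAAG was in 17.4% of the windows of higher genes, 13.9% of those of lower genes and 7.07% of all windows. The GC box GGGCGG was in 58.8%, 63.7% and 33.0% in the same order, and TATAAA, the TATA box, in 7.17%, 6.1% and 13%. The other motifs were nearer to the background, with CCAAT in 37.7%, 37.6% and 34.5%, CACGTG in 9.66%, 9.01% and 6.04%, the cAMP response element TGACGTCA in 2.57%, 2.37% and 1.6%, and the metal response core TGCNCNC in 49.8%, 53.4% and 43.8%. GAANNTTC was in 5.3%, 4.55% and 6.79%, the nuclear receptor half-site AGGTCA in 11.5%, 10% and 13.8%, and GGATTA, a site bound by CRX-type homeodomains, in 5.84%, 4.46% and 6.37%. Of the 100 genes with the largest rises, 85 had a window, of which 10.6% held GGATTA (9 windows), 17.6% AGGTCA (15) and 14.1% CACGTG (12), more than in the windows of all higher genes. The GC box, at 61.2%, and GAANNTTC, at 5.88%, were slightly more frequent too, and TGACGTCA, at 2.35%, slightly less. These 85 windows are part of those of the higher genes, the counts are small, and no difference was tested. The ETS site was in 11.8% of these 85 windows, CCAAT in 31.8%, TATAAA in 5.88% and the metal response core in 34.1%, less than in those of all higher genes. These shares describe letters in a window, and a match is neither a bound site nor a cause of a change. The array's genes are not a random draw from all genes, and only 79.7% of them had a window. They were not used as a background, so a difference from all windows cannot be told apart from the make-up of the array.

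Of the 12422 probe sets, 3851 (31.0%) were called at an adjusted p below 0.05 in limma's moderated test, 2185 higher (17.6%) and 1666 lower (13.4%) in 2-cell embryos. Over the 8251 genes, 1574 (19.1%) were called higher and 1322 (16.0%) lower. Rises were larger than falls: 220 genes were called at least 8-fold higher on the log2(signal + 11) scale, against 32 called at least 8-fold lower. The 2-cell arrays all lay above the 1-cell arrays for 1990 genes (24.1%) and all below for 1699 (20.6%). The offset of 11 understates the change of dim genes, and 745 of the 1574 higher genes had a mean 1-cell signal under 41.1, the median of all values. Of the 1322 lower genes, 213 had a mean 2-cell signal under that value. The deposited values are on a common scale, with a mean over the middle 96% of probe sets of 149.96 to 149.97 on every array, although the mean over all probe sets runs from 209 to 274. No measure of RNA per embryo is given, so less RNA per embryo and fewer embryos in a sample cannot be told apart. Every change is relative to the rest of the array. The split between higher and lower depends on that scaling: 56.7% of the called probe sets were higher as deposited and 46.4% (1876 higher and 2171 lower) after quantile normalization. The share was 37.6% (1642 and 2721) with each array centred on its median and 70.9% (1941 and 795) with each array scaled on its spike controls. The median change over all probe sets was 0.06 as deposited, -0.09, -0.22 and 0.16 in the same order, so that any change or median below is best read against these shifts. The spike controls themselves differed between arrays of a stage. BioB-3, for example, gave 296, 425 and 451 on the 2-cell arrays and 781, 372 and 308 on the 1-cell arrays. Scaling on them carries this spread into the fit, and its part in calls that ended with the spike scaling was not tested.

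**Figure D1:**
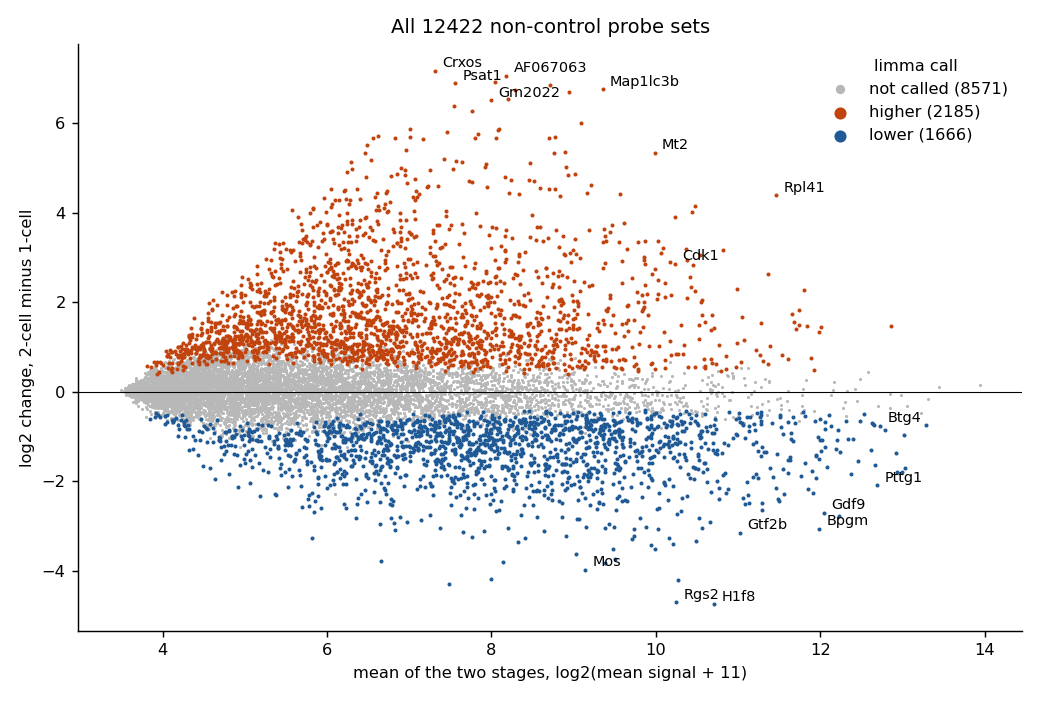
Change of every probe set against its brightness. The x axis is the mean of the 2-cell and 1-cell log2(mean signal + 11) and the y axis the log2 change, 2-cell minus 1-cell. Orange points are the 2185 probe sets called higher in 2-cell embryos, blue points the 1666 called lower and grey points the 8571 not called. Rises reach 7.17 and falls -4.74, and the falls named on the plot lie to the right of Crxos, Psat1 and Gm2022, since they start from brighter signals.

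Arrays of the same stage were close to each other, with correlations of log2 values across probe sets of 0.952 to 0.965 among the 2-cell arrays and 0.960 to 0.972 among the 1-cell arrays, against 0.800 to 0.855 between the stages (probe sets are not independent replicates). The 2-cell arrays differed in their likeness to the neighbouring stages. Array 1 correlated with the 1-cell arrays at 0.844 to 0.855 and with the 4 arrays of 8-cell embryos at 0.785 to 0.797. For array 2 the values were 0.825 to 0.834 and 0.809 to 0.817, and for array 3 0.800 to 0.814 and 0.836 to 0.852. Among the 1574 genes called higher, array 3 was the highest of the 2-cell arrays for 930 and array 1 the lowest for 927. Among the 1322 called lower, array 1 was the highest for 681 and array 3 the lowest for 651. Control probe sets for 18S rRNA differed far more than the spike controls, with log2 differences of -2.42, -3.01 and -4.23 (2-cell minus 1-cell), and the part of 18S RNA in any result was not tested. For 1 of them the signal was 1051.5, 1005.8 and 891 on the 2-cell arrays and 22953, 17086 and 16453 on the 1-cell arrays. The ratio of 3' to 5' signal of the actin control was 3.15 to 4.95 on the 2-cell arrays and 3.24 to 5.82 on the 1-cell arrays, and that of the Gapdh control 5.64 to 8.65 and 4.87 to 5.01.

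The largest rises were those of transcripts at or near background in 1-cell embryos. Crxos, a homeobox gene, gave 1489, 1324 and 3094 on the 2-cell arrays, against 1.7, 2.4 and 1.2 on the 1-cell arrays, a log2 change of 7.17 ± 0.23 (± SE of the fit, here and below, adjusted p = 1.35e-14 by limma), and a second probe set rose by 4.08. All of its 1-cell values lay below the 25th percentile of all values, 10.7, and 2-cell array 3 was the highest. AF067063, for which the files give no function, gave 3768, 3785 and 2456 on the 2-cell arrays, against 7.0, 16.5 and 19.2 on the 1-cell arrays (7.06 ± 0.32). Guca1a, which encodes a calcium-binding activator of guanylate cyclase known from photoreceptors, gave 2802, 2994 and 2838 on the 2-cell arrays, against 18.9, 9.6 and 10.8 on the 1-cell arrays (6.92 ± 0.20). The 2-cell arrays were nearly equal for Guca1a, while for AF067063 array 3 was the lowest. Mkrn1, a ubiquitin ligase, rose by 6.69 ± 0.22 with 4798, 4555 and 5204 on the 2-cell arrays and 19.3, 41.3 and 54.9 on the 1-cell arrays, and its other probe sets rose by 3.31 and 0.81. The remaining genes among the 30 largest rises include Selenos, a selenoprotein that helps to clear misfolded proteins from the endoplasmic reticulum (6.39 ± 0.25), and Akap8, a nuclear anchor of protein kinase A (5.69 ± 0.26). Further probe sets of Akap8 were at 1.51, called higher, and at 0.50, 0.28 and 0.20, not called. Pdxk, which makes active vitamin B6, rose by 5.67 ± 0.29. Others were the heme-sensing repressor Bach1 (5.66 ± 0.30) and the zinc finger gene Zfp644 (5.65 ± 0.33). So were Ppp1r2, an inhibitor of protein phosphatase 1 (5.33 ± 0.22, but -0.73, not called, at another probe set), and Ruvbl1, an ATPase of chromatin and RNP assembly complexes (5.19 ± 0.23, but -0.43, not called, at another probe set). On 1-cell arrays the mean signal of 23 of these 30 was under 41.1, and on oocyte arrays that of 18.

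Levels over the other stages differed widely among these genes. Mean signals in the order oocyte, 1-cell, 2-cell, 8-cell and blastocyst were 36.3, 15.8, 2422, 68.5 and 42.9 for Gm2022, 27.4, 14.2, 3336, 259 and 26.6 for AF067063, and 6.03, 5.0, 795, 12.9 and 15.7 for the ankyrin repeat gene Sowaha. The signal of these 3 was thus far higher at the 2-cell stage than at any other of the 5 stages. Prps1 ran through 50.7, 28.7, 4438, 5379.9 and 2589, and Crxos through 3.75, 1.77, 1969, 8089 and 4978, so that both remained high after the 2-cell stage. Of the 1574 genes called higher, 240 had an oocyte mean at or above the 2-cell mean, so their signal was lower at the 1-cell stage than before and after it. Among those named below, Atp5o had 455, 12.8 and 232 in oocyte, 1-cell and 2-cell, and Cd9 477, 181 and 394. Of the 1322 called lower, 971 had a 1-cell mean above the oocyte mean, beside 4655 of all 8251 genes.

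**Figure D2:**
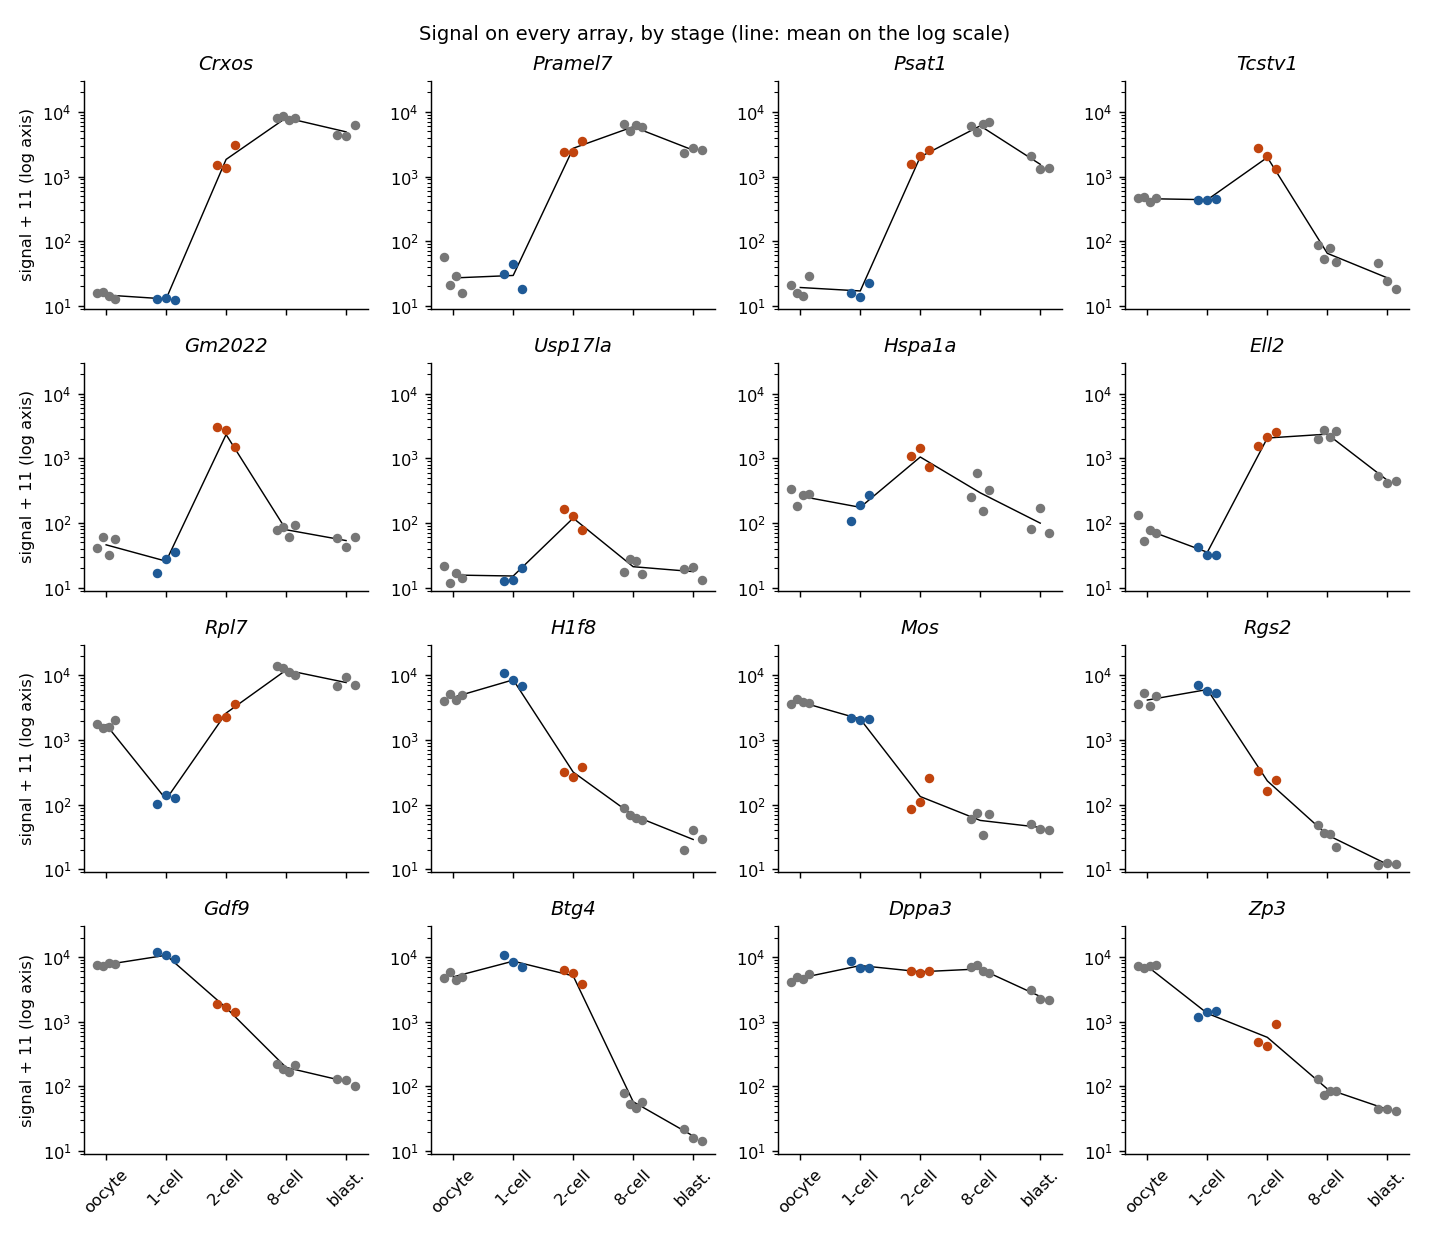
Signal + 11 on a log axis on every array for 16 genes, by stage. Orange points are 2-cell arrays, blue points 1-cell arrays and grey points the other stages, and lines join the stage means on the log scale. Gm2022 and Usp17la peak at the 2-cell stage, Crxos, Pramel7 and Psat1 are higher still at the 8-cell stage, H1f8, Mos and Rgs2 are low from the 2-cell stage on, Btg4 is still bright at the 2-cell stage, and Dppa3 is nearly level from the oocyte to the 8-cell stage.

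Of 19 genes known for a burst of transcription in 2-cell embryos 13 rose, 2 fell and 4 were not called, beside 19.1% higher and 16.0% lower over all genes. The counts of every list below are to be read beside these same shares. Their median change was 2.24, against 0.05 over all genes, and 13 were higher under each of the 3 other scalings. Tcstv1 and Tcstv3, neighbours on chromosome 13, were already measurable in 1-cell embryos: Tcstv1 gave 2791, 2089.9 and 1300.5 on the 2-cell arrays, against 417, 420.0 and 443 on the 1-cell arrays (2.18 ± 0.30, adjusted p = 6.40e-06 by limma), and Tcstv3 1747, 1466 and 904 on the 2-cell arrays, against 173, 133 and 206 on the 1-cell arrays (2.90 ± 0.26). For both, 2-cell array 1 was the highest and array 3 the lowest, and at the 8-cell stage the mean signals were 56 and 47.4. Usp17la, a deubiquitinase, gave 155, 119 and 66.7 on the 2-cell arrays, against 1.8, 2.2 and 9.3 on the 1-cell arrays (2.98 ± 0.32) in the same order of 2-cell arrays. Pramel7, a leucine-rich repeat protein of pluripotent cells, ran the other way among the 2-cell arrays, with 2387, 2417 and 3498 on the 2-cell arrays, against 19.8, 33.9 and 7.5 on the 1-cell arrays (6.54 ± 0.34). Kdm5b, a histone H3K4 demethylase, rose by 1.91 ± 0.27, and Dppa4, a DNA-binding protein of pluripotent cells, by 5.35 ± 0.24. The initiation factor gene Eif1a gave 382, 468 and 479 on the 2-cell arrays, against 7.6, 13.3 and 9.4 on the 1-cell arrays (4.43 ± 0.20, but 0.64, not called, at another probe set). The 2 members called lower were Arg2 (-0.95 ± 0.29), whose call ended without 1-cell array 3 (adjusted p = 0.0632) or 2-cell array 3 (0.127), and Nelfa (-1.04 ± 0.24), whose call ended with the spike scaling (0.109). Eif1ax had 636, 558 and 413 on the 2-cell arrays and 425, 403 and 513 on the 1-cell arrays and was not called.

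Enzymes that feed nucleotide synthesis and 1-carbon metabolism held some of the largest rises, with 15 of 37 higher, 6 lower and 16 not called (median 0.45). Genes of serine synthesis and of glycine cleavage were among them. Psat1, the transaminase of serine synthesis, gave 1528, 2044 and 2578 on the 2-cell arrays, against 4.7, 2.9 and 11.4 on the 1-cell arrays (6.89 ± 0.26). Gcsh, the carrier protein of glycine cleavage, gave 1979.8, 2427 and 3969 on the 2-cell arrays, against 50.7, 48.6 and 69.1 on the 1-cell arrays (5.33 ± 0.20). Gldc, its decarboxylase, gave 206, 308 and 368 on the 2-cell arrays, against 4.5, 7.5 and 11.5 on the 1-cell arrays (3.99 ± 0.23). None of the 1-cell arrays reached the 2-cell range for these genes. Prps1 gave 4189.9, 4494 and 4629 on the 2-cell arrays, against 39.1, 17.5 and 29.4 on the 1-cell arrays (6.85 ± 0.19), Adsl, an enzyme of purine synthesis, rose by 4.29 ± 0.19, and Nme2, which makes nucleoside triphosphates, by 5.88 ± 0.23. Of ribonucleotide reductase, which turns ribonucleotides into precursors of DNA, the large subunit Rrm1 fell by 1.16, and the small subunit Rrm2, with 535, 505 and 509.5 on the 2-cell arrays and 663, 702 and 579.7 on the 1-cell arrays, was not called. Ahcy, which clears S-adenosylhomocysteine (-1.21 ± 0.20), and the mitochondrial adenylate kinase Ak4 (-2.28 ± 0.22) fell.

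Genes of autophagy and the lysosome were called higher in 21 of 61 cases and lower in 9, with 31 not called (median 0.24, and -0.04 with median centring). Map1lc3b, whose product coats the autophagosome membrane, gave 5440.4, 6033 and 8930.5 on the 2-cell arrays, against 36.8, 53.2 and 65.2 on the 1-cell arrays (6.75 ± 0.28), and its other probe set rose by 0.93. The proteases Ctsl (6.73 ± 0.27) and Ctsc (5.69 ± 0.22) and the late endosome tetraspanin Cd63 (5.76 ± 0.17) rose, Ctsl with 2587, 2999 and 3969 on the 2-cell arrays, against 29, 15.5 and 13.6 on the 1-cell arrays. Wipi2, which acts in forming the autophagosome, rose by 4.71 ± 0.27 (but 0.78, not called, at another probe set). Calcoco2, an adaptor that brings cargo to the autophagosome, rose by 5.51 ± 0.20. Npc1, which exports cholesterol from the lysosome, changed the other way, with 149.8, 143 and 142 on the 2-cell arrays, against 1649, 1504 and 1213 on the 1-cell arrays (-3.22 ± 0.15). Atg16l1, which directs the lipid coupling of LC3 proteins, fell by 1.63, while the protease Ctsd was not called, with 280.0, 332 and 324 on the 2-cell arrays and 288, 306 and 315 on the 1-cell arrays.

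Redox genes were called in both directions (11 of 40 higher, 7 lower, 22 not called, median -0.0032, and 0.17 with the spike scaling). Both metallothioneins, small metal-binding proteins, rose: Mt2 gave 5678, 5655 and 8047 on the 2-cell arrays, against 135, 135 and 175 on the 1-cell arrays (5.33 ± 0.19). Mt1 gave 314, 394 and 702 on the 2-cell arrays, against 4.5, 6.2 and 5.7 on the 1-cell arrays (4.79 ± 0.30), with 2-cell array 3 the highest for both. Prdx4, the peroxiredoxin of the endoplasmic reticulum, rose by 4.58 ± 0.18. Txnip, an inhibitor of thioredoxin, gave 116, 143 and 156 on the 2-cell arrays, against 1872, 1846 and 1757 on the 1-cell arrays (-3.63 ± 0.27, but 0.05 at another probe set, not called). The glutaredoxin Glrx gave 481, 262 and 243 on the 2-cell arrays, against 2558, 2578 and 2723 on the 1-cell arrays (-3.02 ± 0.20). The cytosolic superoxide dismutase Sod1 fell by 1.30.

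Of 59 transcription factors of the early embryo, 15 were higher, 9 lower and 35 not called (median 0.28). The 40.7% called stand beside 35.1% over all genes, and 19 of the 59 had both stage means under 41.1. Klf4, a reprogramming factor, gave 432, 439 and 450.4 on the 2-cell arrays, against 56.3, 38.9 and 38.6 on the 1-cell arrays (3.04 ± 0.19). Gabpa, a factor of the ETS family, gave 128, 233 and 199.7 on the 2-cell arrays, against 6.0, 7.4 and 10.2 on the 1-cell arrays (3.36 ± 0.27, and 5.70 at another probe set). All 2-cell arrays lay above all 1-cell arrays for both. Zfp42 (3.42 ± 0.24), the helix-loop-helix inhibitor Id2 (2.89 ± 0.45) and the GC-box factor Sp3 (2.78 ± 0.30) rose too, while Sp1, which binds the same box, was not called with 529.6, 716 and 585 on the 2-cell arrays and 887, 592 and 508 on the 1-cell arrays. Nfya, the DNA-binding subunit of the CCAAT factor NF-Y, fell, with 281, 283 and 229 on the 2-cell arrays, against 1229, 1290.5 and 1435 on the 1-cell arrays (-2.28 ± 0.15), and so did Gata3 (-1.99 ± 0.24). Pou5f1, the pluripotency factor OCT4, had 459, 330.0 and 290.1 on the 2-cell arrays and 277, 453 and 563 on the 1-cell arrays and was not called (95% interval of the change -0.67 to 0.23), and neither was Klf17 (-0.42 ± 0.22).

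The machinery of transcription held changes in either direction. Of 11 subunits of RNA polymerase II, 6 rose, 3 fell and 2 were not called (median 1.34), and the largest subunit, Polr2a, was among those not called, with 305, 335 and 343 on the 2-cell arrays and 414, 323 and 506 on the 1-cell arrays. Polr2l, a small subunit shared by the 3 nuclear polymerases, gave 2338, 3016 and 2495 on the 2-cell arrays, against 331, 358 and 466 on the 1-cell arrays (2.74 ± 0.17). Polr2g, which binds RNA as it leaves the enzyme, gave 599, 339 and 225 on the 2-cell arrays, against 1315, 1236 and 1338 on the 1-cell arrays (-1.82 ± 0.23). General transcription factors were higher in 10 of 20 cases and lower in 3 (median 0.53), with both TFIIF subunits, Gtf2f1 (2.44 ± 0.18) and Gtf2f2 (1.98 ± 0.20), and the helicase Ercc3 of TFIIH (2.32 ± 0.20) among the rises. Gtf2b, which places the polymerase at the start site, stood out among the falls, with 1085, 586 and 464 on the 2-cell arrays, against 5844, 5754 and 6453 on the 1-cell arrays (-3.15 ± 0.24), and 2-cell array 1 was the highest of its stage. Tbp, the TATA-binding protein, gave 294, 250.3 and 273 on the 2-cell arrays and 311, 259 and 292 on the 1-cell arrays and was not called.

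Among 20 elongation factors, 9 rose, 4 fell and 7 were not called (median 0.58), and without 2-cell array 3 the number lower was 2. Ell2, a subunit of the super elongation complex, gave 1558, 2134 and 2577 on the 2-cell arrays, against 32.1, 20.9 and 20.6 on the 1-cell arrays (5.87 ± 0.26), and its other probe sets rose by 4.19 and 3.19. Eloa, the active subunit of elongin, gave 1375, 1762 and 2494 on the 2-cell arrays, against 76.9, 55.2 and 72.9 on the 1-cell arrays (4.54 ± 0.23). Cdk9, the kinase that releases paused polymerase, rose by 1.84 ± 0.21, and its cyclin Ccnt1, with 68.4, 78.5 and 68.4 on the 2-cell arrays and 90.2, 95.7 and 87 on the 1-cell arrays, was not called. Of 14 subunits of Mediator, which links activators to the polymerase, 1 rose (Med14, 2.26 ± 0.37), 5 fell and 8 were not called (median -0.21). Med20 gave 156, 216 and 238 on the 2-cell arrays, against 679, 1033 and 626 on the 1-cell arrays (-1.87 ± 0.23). The calls of Med27 and Med28 ended without 2-cell array 3 (adjusted p = 0.0837 and 0.17), 2-cell array 2 (0.0574 and 0.0608) or 1-cell array 3 (0.0769 and 0.0719), and that of Med28 also without 1-cell array 2 (0.0611). The count for Mediator was then 3 to 5 lower. With the spike scaling 2 were lower (median -0.03), after quantile normalization 3 and with median centring 6. Neither Med27 nor Med28 was called with the spike scaling (adjusted p = 0.573 and 0.515 by limma) or after quantile normalization (0.14 and 0.127).

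**Figure D3:**
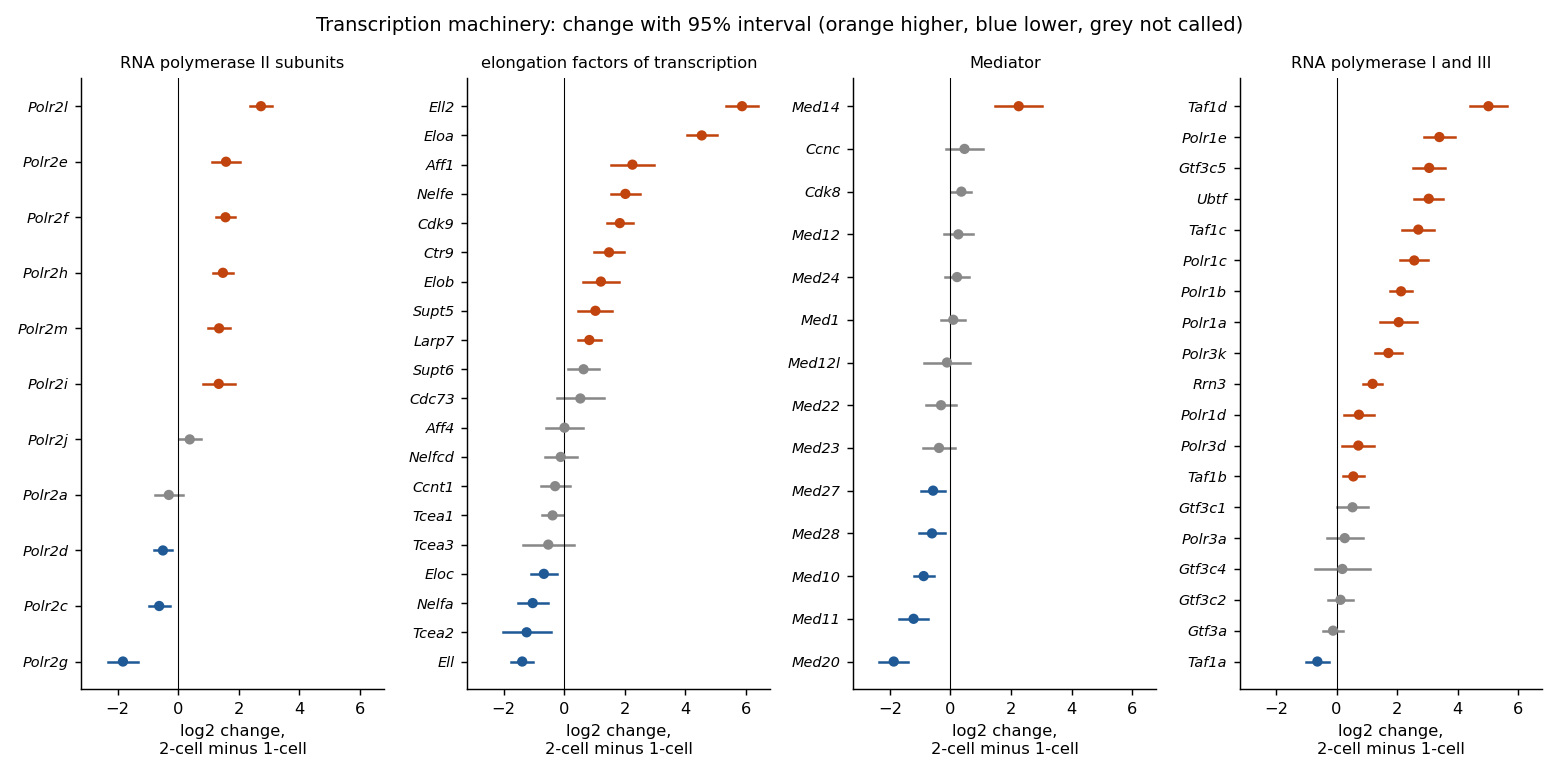
Log2 change, 2-cell minus 1-cell, with its 95% interval for every measured member of 4 lists, sorted by change. Orange marks a gene called higher in 2-cell embryos, blue one called lower and grey one not called. RNA polymerase I and III and the elongation factors have members at and above 3, while 5 of 14 Mediator subunits lie in blue and 1 in orange.

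RNA polymerases I and III, which make ribosomal RNA and small RNAs, had 13 of 19 genes higher, 1 lower and 5 not called (median 1.19, with 10 or 11 higher under the other scalings). Taf1d, a subunit of the polymerase I selectivity factor SL1, gave 1893, 3072 and 3035 on the 2-cell arrays, against 64, 45.1 and 114 on the 1-cell arrays (5.02 ± 0.30), and its other probe sets rose by 3.72 and 4.49. Ubtf, which opens ribosomal DNA for transcription, gave 149, 268 and 296 on the 2-cell arrays, against 21.8, 16.5 and 16 on the 1-cell arrays (3.05 ± 0.23). Polr1e gave 227, 267 and 384 on the 2-cell arrays, against 8.4, 28.8 and 18 on the 1-cell arrays (3.40 ± 0.25). The single member called lower was Taf1a (-0.63 ± 0.19), and its call ended without 1-cell array 2 (adjusted p = 0.0652) or 2-cell array 2 (0.0706).

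Genes for rRNA processing and ribosome assembly held more rises than any other list, with 45 of 73 higher, 8 lower and 20 not called (median 1.05, and 39 to 44 higher under the other scalings). Nop16, a factor of large subunit assembly, gave 1116, 1097 and 1118 on the 2-cell arrays, against 12.8, 21.4 and 28.6 on the 1-cell arrays (5.16 ± 0.22), with 2-cell arrays that hardly differed. Nhp2 gave 1638, 1908 and 2678 on the 2-cell arrays, against 51.8, 85.4 and 103 on the 1-cell arrays (4.53 ± 0.21). Nop58, the core of the C/D particles that guide RNA methylation, gave 485, 583 and 696 on the 2-cell arrays, against 31.2, 33.6 and 37.3 on the 1-cell arrays (3.72 ± 0.17). Wdr74, a factor of pre-60S maturation, rose by 4.28 ± 0.28. Falls were smaller, such as those of the atypical kinase Riok1 (-1.78 ± 0.27) and of Sbds, which readies the large subunit for translation (-1.75 ± 0.16). The abundant nucleolar protein nucleophosmin, Npm1, was not called, with 4506, 4048 and 5456 on the 2-cell arrays and 5839, 5824 and 4631 on the 1-cell arrays.

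Of 34 genes for proteins of the cytosolic ribosome, 20 rose, 1 fell and 13 were not called (median 1.75, and 20 higher under each other scaling). The spread within this family was wide: Rpl41 gave 10699.5, 13273 and 13810.1 on the 2-cell arrays, against 377, 611 and 878 on the 1-cell arrays (4.39 ± 0.27). Rps3 gave 1562, 2030.5 and 2473 on the 2-cell arrays, against 49.1, 121 and 103 on the 1-cell arrays (4.37 ± 0.24). Rpl13a gave 675, 433 and 452 on the 2-cell arrays, against 809, 781 and 763 on the 1-cell arrays (-0.61 ± 0.18). Rpl13a missed the threshold when 2-cell array 2 was left out (adjusted p = 0.068 by limma). Rpl22, with 45.6, 61.4 and 86.4 on the 2-cell arrays and 76.9, 64.3 and 83 on the 1-cell arrays, and Rps29, with 124, 159 and 128 on the 2-cell arrays and 94.2, 91 and 98.7 on the 1-cell arrays, were not called, although another probe set of Rpl22 fell by 2.28. Rpl7 shows the course over stages, with mean signals of 1728 in oocytes, 111 in 1-cell, 2668 in 2-cell and 12171 in 8-cell embryos. The summed signal of the 34 genes was 50653 to 67550 on the 2-cell arrays and 10314 to 12855 on the 1-cell arrays, while the 18S control signals given above differed in the opposite direction, and their part in this result was not tested. Probe sets of ribosomal proteins can also read processed pseudogenes, whose transcripts the array cannot tell apart.

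Mitochondrial ribosomal proteins went both ways, with 23 of 62 higher, 12 lower and 27 not called (median 0.18, and -0.09 with median centring). Mrpl43 rose by 3.18 ± 0.29 and Mrpl51 by 2.60 ± 0.18, while Dap3, a protein of the small mitochondrial subunit, gave 135, 79.4 and 60.4 on the 2-cell arrays, against 451, 451 and 487 on the 1-cell arrays (-2.27 ± 0.23). Initiation factors of translation were higher in 15 of 41 cases and lower in 7 (median 0.26, and -0.01 with median centring). The scaffold subunit Eif3c of eIF3 gave 1216, 1342 and 1988 on the 2-cell arrays, against 129, 159 and 216 on the 1-cell arrays (3.09 ± 0.20), whereas Eif3e of the same complex fell by 2.02. The heme-regulated kinase Eif2ak1, which shuts initiation down, gave 14, 21.4 and 23.1 on the 2-cell arrays, against 189, 148 and 183 on the 1-cell arrays (-2.60 ± 0.29). In termination, the release factor Etf1 gave 2182, 2096 and 2904 on the 2-cell arrays, against 225, 194 and 249 on the 1-cell arrays (3.35 ± 0.17). Of its GTPase partners Gspt2 fell by 2.79 and Gspt1, with 292, 359.7 and 537 on the 2-cell arrays and 323, 434 and 408 on the 1-cell arrays, was not called. Among tRNA synthetases and their partners, 10 of 27 were higher and 7 lower (median 0.21, and -0.07 with median centring). Yars rose by 2.53 ± 0.32 and Aars by 2.20 ± 0.25, although another probe set of Yars, at -0.09, was not called. Lars fell by 1.90, and Sepsecs, which makes selenocysteyl-tRNA, by 4.30.

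Heat shock proteins and their partners included 18 of 58 higher, 13 lower and 27 not called (median 0.15, and -0.13 with median centring). The number lower was 7 without 1-cell array 3, 6 without 2-cell array 2 and 8 without 2-cell array 3. Hspa1a, the inducible HSP70 known as an early mark of genome activation, gave 1071, 1410.1 and 733 on the 2-cell arrays, against 94.2, 178 and 256 on the 1-cell arrays (2.59 ± 0.42). Hspa1b gave 290.3, 325 and 271 on the 2-cell arrays, against 75.4, 34.6 and 58.4 on the 1-cell arrays (2.24 ± 0.41). The 2 genes are near-identical copies, so their probe sets cannot be taken as independent. The groups did not overlap for either gene. Bag3, their nucleotide exchange factor, gave 157, 166 and 234 on the 2-cell arrays, against 0.9, 0.5 and 0.4 on the 1-cell arrays (4.06 ± 0.32). Dnajb9, an HSP40 of the endoplasmic reticulum, gave 1286, 1544 and 1419 on the 2-cell arrays, against 35.6, 29.5 and 28.7 on the 1-cell arrays (5.08 ± 0.22). Another HSP40, Dnajb4, gave 356, 129.7 and 140.5 on the 2-cell arrays, against 1751, 2548 and 2589 on the 1-cell arrays (-3.52 ± 0.42). Of the chaperonin CCT and prefoldin, 6 of 14 rose and 2 fell (median 0.41), with 1 of these falls called without 1-cell array 2 or 3 or 2-cell array 1 or 2, and subunits of the same CCT ring differed: Cct6a rose by 3.64 ± 0.34 and Cct4 by 2.41 ± 0.18, while Cct7, with 364, 469 and 549 on the 2-cell arrays and 467, 501 and 428 on the 1-cell arrays, was not called. Nor was Cct2, with 101, 124 and 151 on the 2-cell arrays and 123, 102 and 175 on the 1-cell arrays. A dimmer probe set of Cct6a, at 0.06, was not called.

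Of 44 proteasome genes 14 were higher, 14 lower and 16 not called (median 0.03, and 9 lower without 1-cell array 2). This even split was not kept with median centring (10 higher and 18 lower, median -0.25) or the spike scaling (10 higher and 6 lower, median 0.13). Psmd14, the deubiquitinase of its lid, gave 457, 679 and 866 on the 2-cell arrays, against 20.4, 31.1 and 49.8 on the 1-cell arrays (3.93 ± 0.25). Psmb5, a catalytic subunit, gave 402, 452 and 510.4 on the 2-cell arrays, against 12.4, 25.1 and 29 on the 1-cell arrays (3.84 ± 0.18, but 0.63, not called, at another probe set). Among the ring's alpha subunits Psma3 rose by 2.01 ± 0.17, while Psma7, with 227, 133 and 213 on the 2-cell arrays, against 1591, 1601 and 1586 on the 1-cell arrays (-3.02 ± 0.22), and Psma2 (-1.99 ± 0.17) fell. Splicing factors were split as well (32 of 103 higher, 24 lower, 47 not called, median 0.02, and -0.25 with median centring). Snrpc, the C protein of the U1 particle, gave 741, 980.2 and 842 on the 2-cell arrays, against 14.9, 111 and 88.5 on the 1-cell arrays (3.66 ± 0.37). Rbm8a, a core protein of the exon junction complex, gave 2018, 2453 and 2135 on the 2-cell arrays, against 142, 187 and 241 on the 1-cell arrays (3.49 ± 0.18). Prpf6, which bridges the particles of the tri-snRNP, gave 339, 334 and 329 on the 2-cell arrays, against 1534, 2227 and 1849 on the 1-cell arrays (-2.43 ± 0.15). Smn1, which loads Sm proteins onto small nuclear RNAs, fell by 2.37. Snrpb, an Sm protein, was not called, with 2674, 3084 and 3603 on the 2-cell arrays and 3813, 2653 and 2799.7 on the 1-cell arrays.

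Genes of the nuclear pore and of nuclear transport were called in both directions (16 of 45 higher, 15 lower, 14 not called, median -0.05, and 0.15 with the spike scaling). The 5 largest rises were those of the import receptors Tnpo3 (4.73 ± 0.23), which carries splicing factors, Kpna1 (4.51 ± 0.25) and Ipo7 (3.58 ± 0.27), the mRNA export adaptor Alyref (2.97 ± 0.22) and the Ran regulator Rangap1 (2.79 ± 0.27). The 5 largest falls were those of the pore proteins Nup85 (-2.41 ± 0.15), Nup88 (-2.33 ± 0.16), Nup93 (-2.31 ± 0.19) and Sec13 (-1.95 ± 0.14) and of the export factor Mcm3ap (-2.41 ± 0.20). Tnpo3 gave 1223, 1356 and 2059 on the 2-cell arrays, against 37.1, 37.7 and 69.2 on the 1-cell arrays, and Nup85 gave 341, 322 and 331 on the 2-cell arrays, against 1649, 2148 and 1661 on the 1-cell arrays. The import receptor Kpna3, with 2543, 2519 and 1999.5 on the 2-cell arrays and 2639, 2158 and 2160.2 on the 1-cell arrays, was not called, while a dimmer probe set of it rose by 0.89.

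The largest falls were those of transcripts that were abundant in 1-cell embryos. H1f8, the linker histone of the oocyte, gave 306, 258 and 370.4 on the 2-cell arrays, against 10752, 8345 and 6905 on the 1-cell arrays (-4.74 ± 0.23, adjusted p = 2.52e-12 by limma), and Rgs2, which dampens G protein signals, 316, 149 and 231 on the 2-cell arrays, against 7112, 5803 and 5320.4 on the 1-cell arrays (-4.70 ± 0.27). For both genes all 2-cell arrays lay far below the 1-cell arrays, and 2-cell array 2 was the lowest. Crabp2, a carrier of retinoic acid, gave 67.6, 39.2 and 41.9 on the 2-cell arrays, against 991, 1118 and 1088 on the 1-cell arrays (-4.18 ± 0.25). Gja4, connexin 37, the oocyte's side of its gap junctions with follicle cells, gave 70.0, 45.9 and 64 on the 2-cell arrays, against 639, 733 and 601 on the 1-cell arrays (-3.25 ± 0.19). Bpgm, a phosphoglycerate mutase that makes 2,3-bisphosphoglycerate, gave 1402, 1629.5 and 1177 on the 2-cell arrays, against 12207, 12656 and 10156 on the 1-cell arrays (-3.05 ± 0.27). Further falls among the 30 largest were those of the laminin chain Lamb1 (-3.52 ± 0.23), the lysine-degrading enzyme Aass (-3.36 ± 0.27) and the Rag GTPase Rraga, which acts in amino acid sensing (-3.26 ± 0.29). The same holds for the corepressor Ctbp2 (-3.03 ± 0.36), the DNA damage clamp protein Hus1 (-3.05 ± 0.24, but -0.17 and 0.23, not called, at 2 further probe sets), the mitochondrial deoxyguanosine kinase Dguok (-3.11 ± 0.20) and Ndfip1, an adaptor of NEDD4-type ubiquitin ligases (-3.06 ± 0.16). Few of these falls ended near background: 2 of the 30 genes had a mean 2-cell signal under 41.1.

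Of 22 oocyte products, 16 were called lower, 1 higher and 5 not called (median -1.23, and 10 lower with the spike scaling). The summed signal of these genes was 23948 to 35008 on the 2-cell arrays and 75217 to 90463 on the 1-cell arrays. The size of the fall differed widely between members. Mos, the kinase that holds the egg in metaphase, gave 74.2, 97.9 and 246 on the 2-cell arrays, against 2204, 2011 and 2083 on the 1-cell arrays (-3.98 ± 0.31), with 2-cell array 3 the highest of its stage. Gdf9, a growth factor for the follicle, gave 1883, 1670.5 and 1395 on the 2-cell arrays, against 11968, 10737 and 9489 on the 1-cell arrays (-2.70 ± 0.16). Its relative Bmp15 gave 1308, 880.2 and 436 on the 2-cell arrays, against 1695, 1679 and 1888 on the 1-cell arrays (-1.13 ± 0.28), a call that ended with the spike scaling (adjusted p = 0.133 by limma). The egg coat genes differed: Zp3 gave 477, 410.0 and 913 on the 2-cell arrays, against 1162, 1393 and 1481 on the 1-cell arrays (-1.23 ± 0.23), Zp1 fell by 0.94 (not called with the spike scaling, adjusted p = 0.165 by limma) and Zp2, with 625, 492 and 758 on the 2-cell arrays and 482, 486 and 617 on the 1-cell arrays, was not called (95% interval -0.44 to 0.89). Omt2b, a transcript of the oocyte, was bright and also not called, with 8109, 7902 and 7596 on the 2-cell arrays and 9117, 8244 and 7629.6 on the 1-cell arrays. Cd9, the egg tetraspanin needed for fusion with sperm, was the member called higher, with 425, 381 and 376 on the 2-cell arrays, against 121, 194 and 228 on the 1-cell arrays (1.12 ± 0.21).

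Maternal effect genes, whose products the egg must supply for cleavage, included 6 of 28 higher, 11 lower and 11 not called (median -0.21, and 0.01 with the spike scaling). The 21.4% higher is near the 19.1% over all genes, while 39.3% were lower against 16.0%. Zbed3, a protein of the complex under the egg's membrane, gave 5658, 3394 and 3568 on the 2-cell arrays, against 18228, 12363 and 12547 on the 1-cell arrays (-1.79 ± 0.23). The small RNA processing enzyme Dicer1 gave 92.9, 66.2 and 40.8 on the 2-cell arrays, against 437, 422 and 396 on the 1-cell arrays (-2.52 ± 0.25). Ago2, the nuclease that small RNAs guide, changed the other way, with 439, 526 and 713 on the 2-cell arrays, against 199, 147 and 146 on the 1-cell arrays (1.69 ± 0.22). Smarca4, the ATPase BRG1, rose by 1.50 ± 0.18 and the insulator protein Ctcf by 1.01 ± 0.17. Btg4, which brings the deadenylase to maternal mRNAs, gave 6207, 5691 and 3793 on the 2-cell arrays, against 10751, 8444 and 7153 on the 1-cell arrays (-0.76 ± 0.23). This small fall missed the threshold when 1-cell array 1 (adjusted p = 0.0793 by limma) or 2-cell array 3 (0.0945) was left out, after quantile normalization (0.461) or with the spike scaling (0.298). The threshold was also missed with only the 6 arrays of the 2 stages fitted (0.0742) or with an offset of 1 (0.0668).

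Regulators of mRNA storage and decay were divided, with 15 of 48 higher, 16 lower and 17 not called (median -0.23). Tob1, which binds the CCR4-NOT deadenylase, gave 620.4, 614 and 366 on the 2-cell arrays, against 18.2, 18.9 and 28 on the 1-cell arrays (4.03 ± 0.29). The poly(A)-binding protein Pabpc1 gave 1167, 1478 and 1952 on the 2-cell arrays, against 189, 202 and 147 on the 1-cell arrays (3.00 ± 0.23). Zfp36l2, which targets AU-rich mRNAs, rose by 2.97 ± 0.33, although 2 further probe sets of the gene, at 0.04 and -0.59, were not called. Dcp1a, a cofactor of decapping, gave 506, 339.6 and 375 on the 2-cell arrays, against 2736, 2649.7 and 2223 on the 1-cell arrays (-2.62 ± 0.17), the deadenylase subunit Pan2 fell by 1.79 and Lsm14b, a storage granule protein, by 1.58. Ybx1, a general mRNA-binding protein, was not called at a high signal, with 9505, 13767 and 11734 on the 2-cell arrays and 11912, 10577 and 9621 on the 1-cell arrays.

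Of 45 genes of meiotic arrest and egg activation, 2 were higher, 12 lower and 31 not called (median -0.29, and 1 higher without 2-cell array 2). Itpr2, a calcium channel of the endoplasmic reticulum, gave 2662, 1716 and 1211 on the 2-cell arrays, against 15055, 11379 and 10574 on the 1-cell arrays (-2.78 ± 0.29), and a second probe set fell by 4.19 while 2 dim ones were not called. The kinase Map2k1, which acts downstream of Mos, gave 938, 443 and 315 on the 2-cell arrays, against 1978, 2328 and 1950.5 on the 1-cell arrays (-2.01 ± 0.27). The inhibitory G protein subunit Gnai3 gave 472, 579 and 709.6 on the 2-cell arrays, against 2903, 3258 and 2726 on the 1-cell arrays (-2.33 ± 0.27). Prkcd, a protein kinase C, was higher, with 800.2, 1022 and 1028 on the 2-cell arrays, against 186, 161 and 189 on the 1-cell arrays (2.33 ± 0.17). The related G protein subunit Gnai2, with 1367, 1074 and 950.2 on the 2-cell arrays and 1331, 1199.6 and 1006 on the 1-cell arrays, was not called at its brightest probe set, while 2 further ones fell by 0.48 and 1.05. Gnas was not called, with 1555, 1099.7 and 576 on the 2-cell arrays and 1382, 1145 and 1123 on the 1-cell arrays.

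Chromatin genes held a few large rises among more genes that fell or were not called. Of 21 histones, linker histones and their mRNA-binding protein, 2 were higher, 5 lower and 14 not called (median -0.28), and 10 had both means under 41.1. The 2 that rose were the H2A.Z genes, variants found at promoters: H2az1 gave 3577, 3272 and 3103 on the 2-cell arrays, against 315, 389.5 and 242 on the 1-cell arrays (3.37 ± 0.24). H2az2 gave 2694, 2981 and 2717 on the 2-cell arrays, against 240.1, 248 and 312 on the 1-cell arrays (3.35 ± 0.18). Slbp, which binds the end of histone mRNAs and supports their translation in the egg, gave 1278, 925 and 805 on the 2-cell arrays, against 7348, 6267 and 5081 on the 1-cell arrays (-2.63 ± 0.19). Among 19 histone chaperones 3 rose and 6 fell (median -0.20, and 0.01 with the spike scaling). Set rose by 2.70 ± 0.25 and Nasp by 1.49 ± 0.17. Asf1a, which hands H3-H4 dimers to the assembly factors, gave 1713, 1113 and 955 on the 2-cell arrays, against 7039.5, 6251 and 6014 on the 1-cell arrays (-2.38 ± 0.23).

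Histone-modifying enzymes were higher in 9 of 51 cases and lower in 16 (median -0.16, and 0.03 with the spike scaling). Hdac1, a histone deacetylase, gave 354, 424 and 492 on the 2-cell arrays, against 10.4, 12.2 and 7.9 on the 1-cell arrays (4.35 ± 0.27). Kat2b, an acetyltransferase, gave 149.7, 219.5 and 300.2 on the 2-cell arrays, against 10.5, 2.6 and 11.2 on the 1-cell arrays (3.60 ± 0.28). Of the Polycomb complex that methylates H3K27, Eed gave 1259, 812 and 775 on the 2-cell arrays, against 3256, 3578 and 3273 on the 1-cell arrays (-1.85 ± 0.20). Ezh2 fell by 1.49, while Suz12, with 1213, 2382 and 1772 on the 2-cell arrays and 2106, 2236 and 1632 on the 1-cell arrays, was not called. Chromatin remodelling factors were higher in 6 of 25 cases and lower in 7 (median -0.08). Smarcc1, a core subunit of the BAF complex, rose by 3.59 ± 0.31 and the remodelling ATPase Chd1 by 2.90 ± 0.20, while Hells, another such ATPase, fell by 1.61. In DNA methylation, 3 of 14 were higher and 5 lower (median -0.19), and without 1-cell array 2 the number higher was 1. Dnmt1, the maintenance methyltransferase, gave 405, 405 and 384 on the 2-cell arrays, against 1301, 1232 and 1543 on the 1-cell arrays (-1.74 ± 0.17, and 0.69, not called, at a dimmer probe set). Gadd45b, a stress-induced protein linked to demethylation, gave 184, 239 and 254 on the 2-cell arrays, against 1.2, 5.3 and 1.5 on the 1-cell arrays (4.11 ± 0.26). Zfp57, which keeps imprints methylated, gave 99.7, 67.1 and 62.7 on the 2-cell arrays, against 328, 622 and 682 on the 1-cell arrays (-2.62 ± 0.27).

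Among the lists, DNA replication had the largest share of falls after the oocyte products, with 26 of 51 lower, 6 higher and 19 not called (median -0.62, and 13 lower with the spike scaling). Rpa1, the large subunit of the single-strand binding protein, gave 266, 169 and 222 on the 2-cell arrays, against 1260.1, 1249.7 and 1111 on the 1-cell arrays (-2.43 ± 0.22). Mcm4, of the replicative helicase, gave 299.6, 272 and 266 on the 2-cell arrays, against 1071, 1193 and 1157 on the 1-cell arrays (-1.99 ± 0.17). Orc6, of the origin complex, fell by 1.92. Cdc6, which loads the helicase, rose by 1.12 ± 0.20, and topoisomerase Top2a by 1.95 ± 0.20 while Top2b fell by 1.93. Geminin, Gmnn, which blocks a second loading, was not called, with 2043, 2154 and 2275 on the 2-cell arrays and 1816, 1662 and 1781 on the 1-cell arrays. Genes of mitosis and the spindle were lower in 20 of 53 cases and higher in 6 (median -0.31, and 9 lower with the spike scaling). Kif23, a kinesin of the midzone, gave 1577, 1981 and 1820.2 on the 2-cell arrays, against 8319.5, 6522 and 5363 on the 1-cell arrays (-1.89 ± 0.18). Cenpa, the centromeric histone, gave 339, 270.4 and 245 on the 2-cell arrays, against 1022, 1115 and 980.4 on the 1-cell arrays (-1.84 ± 0.19). Nek2, a centrosome kinase, was higher, with 1469, 2019 and 2036 on the 2-cell arrays, against 514, 408 and 425 on the 1-cell arrays (2.00 ± 0.17). The kinase Aurka, with 1207, 1469 and 1788 on the 2-cell arrays and 1612, 2173 and 1897 on the 1-cell arrays, was not called. Nor was Plk3, with 1666, 1771 and 1495 on the 2-cell arrays and 1588, 1271 and 2017 on the 1-cell arrays.

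Cell cycle control genes were higher in 12 of 60 cases, lower in 16 and not called in 32 (median -0.15, and 0.03 with the spike scaling). Cdk1, the mitotic kinase, gave 3051, 3476 and 3132 on the 2-cell arrays, against 383, 411 and 517 on the 1-cell arrays (2.86 ± 0.21), while its cyclins differed: Ccnb2 fell by 1.59 and Ccna2, with 587, 604 and 448 on the 2-cell arrays and 492, 608 and 539 on the 1-cell arrays, was not called. Ccne1, the cyclin of entry into S phase, gave 793, 893 and 1052 on the 2-cell arrays, against 78.2, 108 and 118 on the 1-cell arrays (3.04 ± 0.22). The phosphatase Cdc25c gave 728, 995 and 988 on the 2-cell arrays, against 53.2, 52.6 and 77.1 on the 1-cell arrays (3.67 ± 0.18). Inhibitors of the cycle differed in direction. Cdkn1a, p21, rose, with 223, 189.5 and 233 on the 2-cell arrays, against 19.5, 20.8 and 18.4 on the 1-cell arrays (2.88 ± 0.24, but 0.80, not called, at another probe set). Cdkn2d, p19, rose by 4.07 ± 0.27. Cdkn1c fell, with 167, 188 and 98.6 on the 2-cell arrays, against 696, 569.5 and 333 on the 1-cell arrays (-1.73 ± 0.27). Of the apoptosis regulators 9 of 38 were higher and 7 lower (median 0.20, and -0.07 with median centring). These shares, 23.7% higher and 18.4% lower, are near the 19.1% and 16.0% over all genes. The survival protein Mcl1 gave 218, 259 and 301 on the 2-cell arrays, against 68.4, 38.9 and 40.8 on the 1-cell arrays (2.18 ± 0.21). Bcl2l10, the BCL2 relative of oocytes, gave 6136, 4337 and 2898 on the 2-cell arrays, against 17966, 13479 and 13079 on the 1-cell arrays (-1.78 ± 0.24).

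Energy metabolism showed small shifts with single large ones. Glycolysis genes were higher in 10 of 22 cases and lower in 2 (median 0.37, and 6 higher without 1-cell array 1). Pgam1, phosphoglycerate mutase, gave 484, 561 and 751 on the 2-cell arrays, against 118, 163 and 126 on the 1-cell arrays (2.05 ± 0.18). The glucose carrier Slc2a1 fell by 1.68 and Slc2a3 rose by 1.42 ± 0.35. Citrate cycle and pyruvate genes were lower in 10 of 28 cases and higher in 5 (median -0.27). Idh3g, of isocitrate dehydrogenase, rose by 3.25 ± 0.19. The malate dehydrogenase Mdh2 gave 1197, 1199 and 1669 on the 2-cell arrays, against 121, 169.8 and 164 on the 1-cell arrays (3.07 ± 0.16), while Fh1, fumarase, fell by 1.64. Of 77 oxidative phosphorylation genes 25 were higher, 10 lower and 42 not called (median 0.25, -0.03 with median centring, and 6 lower without 1-cell array 3 or 2-cell array 2). Atp5o of the ATP synthase rose by 3.35 ± 0.24, and Uqcrc2 of complex III gave 232, 227 and 353 on the 2-cell arrays, against 3198, 2397 and 2156 on the 1-cell arrays (-3.21 ± 0.22). Cholesterol and lipid synthesis was higher in 11 of 23 cases and lower in 6 (median 0.39): the fatty acid elongase Elovl6 (3.43 ± 0.24) and Sqle, which makes squalene epoxide (2.64 ± 0.20), rose, and Idi1, an earlier step of the sterol pathway, gave 375, 221 and 151 on the 2-cell arrays, against 1344, 1684 and 1454 on the 1-cell arrays (-2.62 ± 0.28). Of 17 genes of polyamine synthesis and arginine use 5 were higher, 2 lower and 10 not called (median 0.04, and -0.24 with median centring). Odc1, the first enzyme of polyamine synthesis, rose, with 1220.1, 1676 and 2292 on the 2-cell arrays, against 288, 222 and 203 on the 1-cell arrays (2.77 ± 0.21), and so did Sat1, the acetylase that starts polyamine breakdown (3.61 ± 0.22). Arg2, given above, was among those called lower.

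**Figure D4:**
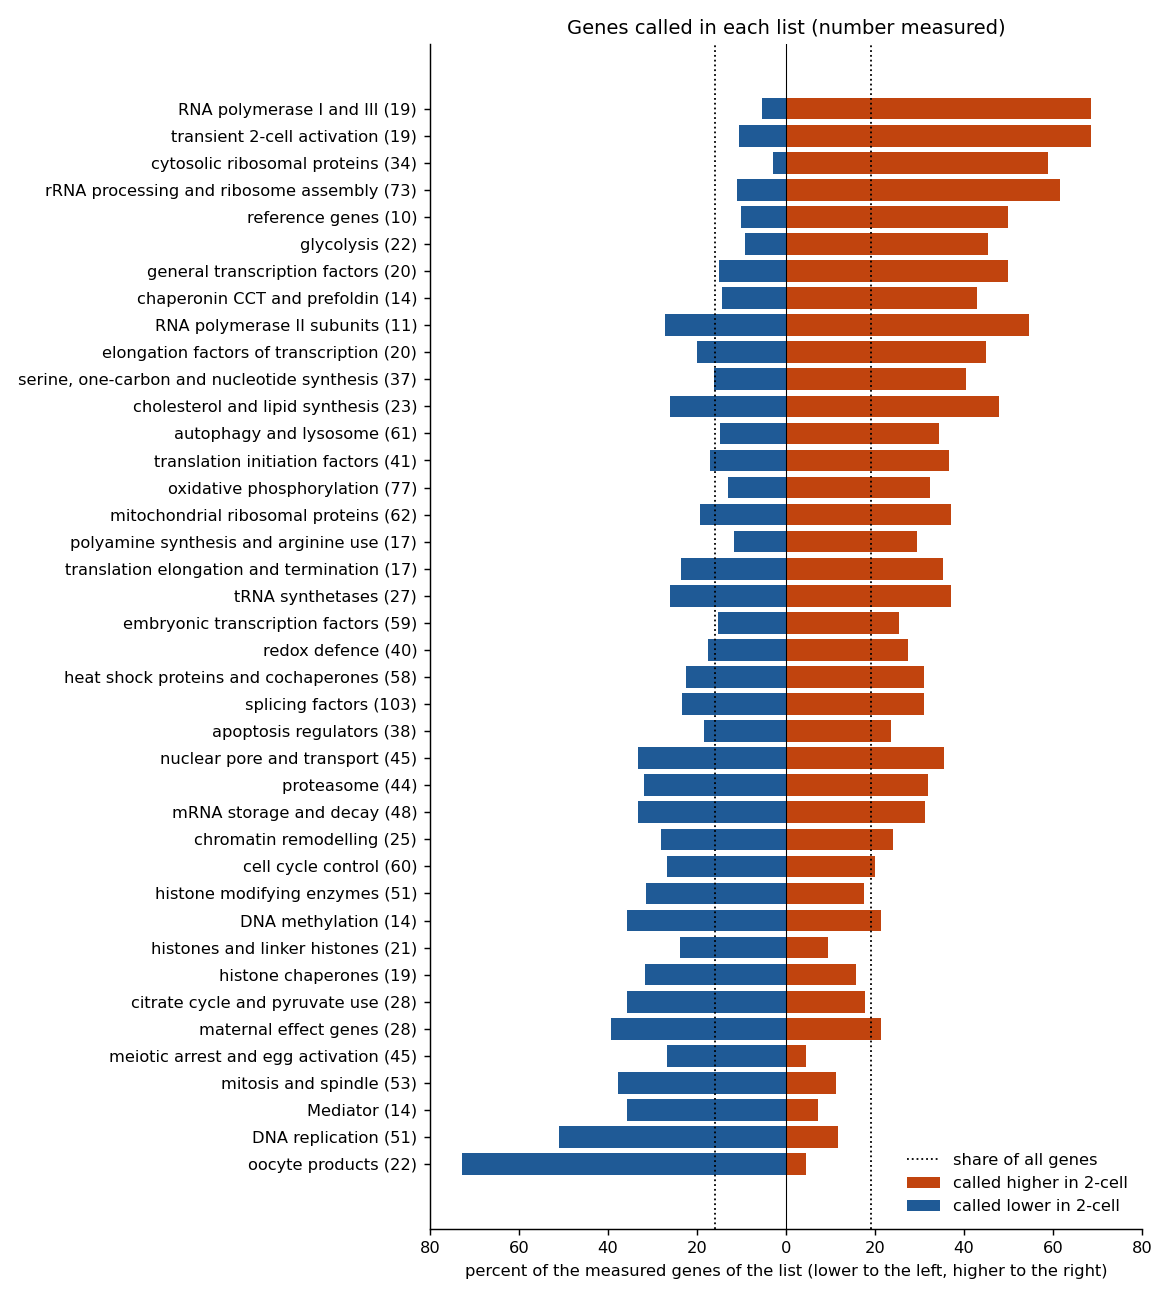
Percent of the measured genes of each list called lower (blue, to the left) and called higher (orange, to the right) in 2-cell embryos, with the number measured in brackets. Dotted lines mark the shares over all 8251 genes, 16.0% lower and 19.1% higher. RNA polymerase I and III, transient 2-cell activation, ribosomal proteins and rRNA processing pass 55% higher, and oocyte products and DNA replication pass 50% lower.

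In several pairs of related genes the members differed in the direction of their change. These pairs were picked after their values were seen, and no test was made of them as pairs. Lactate dehydrogenase A, Ldha, gave 445, 515 and 331 on the 2-cell arrays, against 6.4, 13.2 and 21.4 on the 1-cell arrays (4.18 ± 0.40). The B subunit, Ldhb, gave 2709.6, 1379 and 1070.4 on the 2-cell arrays, against 5521, 5568 and 5684 on the 1-cell arrays (-1.81 ± 0.28). The checkpoint kinase Chek2 gave 477, 564 and 706 on the 2-cell arrays, against 7.4, 51.2 and 6.7 on the 1-cell arrays (4.43 ± 0.31). Chek1 gave 2620.1, 1886 and 1712 on the 2-cell arrays, against 7973, 6997 and 6166 on the 1-cell arrays (-1.78 ± 0.19). The groups do not overlap for any of these 4 genes. Ell gave 320.0, 329.9 and 340.4 on the 2-cell arrays, against 1071, 756 and 847 on the 1-cell arrays (-1.39 ± 0.18), in contrast to the rise of Ell2 above. The primase subunits Prim1 and Prim2 changed by 2.01 ± 0.22 and -2.15 ± 0.24, and the arginases Arg1 and Arg2 2.85 ± 0.28 and -0.95 ± 0.29. Hdac2, with 828, 478 and 477 on the 2-cell arrays and 624, 519 and 551 on the 1-cell arrays, was not called beside the rise of Hdac1.

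**Figure D5:**
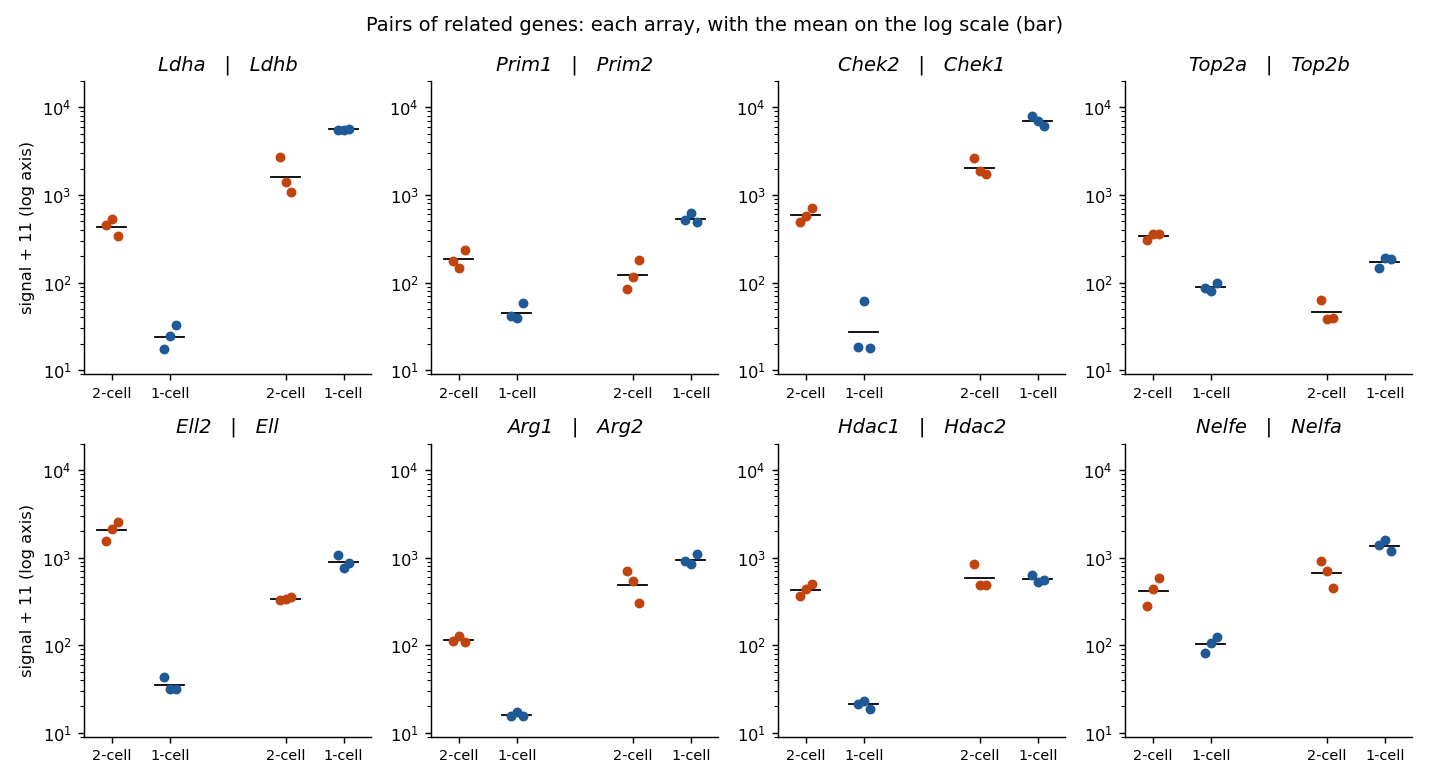
Signal + 11 on a log axis on each array for 8 pairs of genes of the same family or complex, orange for 2-cell and blue for 1-cell arrays, with bars at the mean on the log scale. In each panel the first gene is higher in 2-cell embryos, and the second is lower in 7 panels and not called for Hdac2. Levels of different genes are not comparable, since each probe set binds with its own strength.

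Of the 8251 genes, 5355 (64.9%) were not called, and for 3592 of these (43.5% of all genes) the 95% interval of the change lay within 1 of 0 on the log2 scale. Of the 1958 genes with both stage means above 152.5, 344 were higher, 712 lower and 902 not called, and 795 of these 902 had such an interval. Among the 10 smallest differences of the bright genes were those of Rev3l, the catalytic subunit of DNA polymerase zeta, with 787, 1073 and 809 on the 2-cell arrays and 1087, 897 and 692 on the 1-cell arrays, and of Ppp1cc, a catalytic subunit of protein phosphatase 1, with 256, 293 and 335 on the 2-cell arrays and 299.8, 298 and 281 on the 1-cell arrays. Genes often used to normalize measurements were not steady as a group: of 10, 5 were higher and 1 lower (median 0.69, and 0 lower without 1-cell array 2 or 2-cell array 3). The largest rises were those of H2az1 and of the transferrin receptor Tfrc (2.94 ± 0.21). Hprt, with 2111, 2615 and 3289 on the 2-cell arrays and 2038, 1862 and 1582 on the 1-cell arrays, was not called, nor was Tbp, but Hprt passed the threshold after quantile normalization (0.84), with any of 3 filters on dim probe sets (0.53) and without 2-cell array 1 (0.69). Of 2073 genes with more than 1 probe set, 38 had probe sets called in opposite directions, 757 had some called and others not, and 207 had all called the same way. The widest disagreements were those of Rbm39 (3.18 and -1.27), Noct (2.49 and -1.70) and Pttg1 (1.90 and -2.09), so a direction for these genes rests on which probe set is read. Of 64 called genes named here that have further probe sets, 32 had one that was not called.

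Of the markers of other cells, both stage means were under 41.1 for 8 of 11 cumulus and granulosa, 5 of 12 sperm, 5 of 9 blood and 6 of 14 oviduct and uterus genes, beside 2880 of all 8251 genes. None of 11 cumulus and granulosa markers was called, and their summed signal was 613 to 688 on the 2-cell arrays and 612 to 745 on the 1-cell arrays. Of 12 sperm markers 1 was called, the lactate dehydrogenase Ldhc (2.39 ± 0.33), and 2 were higher without 2-cell array 1 or 2 and 1 lower without 1-cell array 2. The sperm markers summed to 870.4 to 1079 on the 2-cell arrays and 874 to 903 on the 1-cell arrays. Of 9 blood markers 1 was called, Lyz2 (2.57 ± 0.59), with 2 higher without 1-cell array 3, and their sums were 273 to 348 on the 2-cell arrays and 122 to 263 on the 1-cell arrays. Of 14 oviduct and uterus markers 3 were higher and 0 lower, with sums of 1677 to 2283 on the 2-cell arrays and 800.0 to 1096 on the 1-cell arrays. The 21.4% higher is near the 19.1% over all genes. Ovgp1, a glycoprotein secreted by the oviduct, gave 1272, 715 and 688 on the 2-cell arrays, against 28.8, 48.6 and 56.4 on the 1-cell arrays (4.00 ± 1.02). Foxj1, a regulator of ciliated cells, rose by 1.81 ± 0.46. Lactoferrin, Ltf, gave 291, 171 and 167 on the 2-cell arrays, against 16.4, 10.9 and 72.5 on the 1-cell arrays (2.54 ± 0.94, adjusted p = 0.0469 by limma), and its call ended without 1-cell array 1 (adjusted p = 0.13) or 2 (0.159) and without 2-cell array 1 (0.128), 2 (0.0802) or 3 (0.0798). Vimentin, Vim, with 64.3, 50.6 and 57.7 on the 2-cell arrays and 48.8, 50.9 and 67.9 on the 1-cell arrays, and the collagen Col3a1, with 13.7, 6.9 and 21 on the 2-cell arrays and 19, 15.9 and 15.4 on the 1-cell arrays, were not called. The collagen Col1a2, with 299, 396 and 371 on the 2-cell arrays and 402, 348 and 358 on the 1-cell arrays, was brighter and not called either. A further probe set of Col1a2 was dim, with mean signals of 6.17 on the 2-cell and 6.83 on the 1-cell arrays. Another probe set of Col3a1, also dim, was called lower (-0.73, adjusted p = 0.0497 by limma), with mean signals of 2.63 on the 2-cell and 13.2 on the 1-cell arrays. Of 13 genes of later lineages 3 were higher and 2 lower (median 0.20, and -0.07 with median centring), and 6 had both means under 41.1. The 23.1% higher and 15.4% lower are near the 19.1% and 16.0% over all genes. The growth factor Fgf4 gave 342, 394 and 406 on the 2-cell arrays, against 151, 275 and 205 on the 1-cell arrays (0.86 ± 0.18), and the tight junction gene Cldn6 138, 88.4 and 53.4 on the 2-cell arrays, against 4.6, 1.8 and 4.8 on the 1-cell arrays (2.75 ± 0.32). The endoderm factor Sox17 rose by 1.32 ± 0.36 but missed the threshold when 1-cell array 3 was left out (adjusted p = 0.0548 by limma), while the claudin Cldn4 (-1.05 ± 0.28) and the collagen Col4a1 (-1.80 ± 0.39) fell. Cdx2, the trophectoderm factor, was near 0 throughout, with 2.2, 4.5 and 3.5 on the 2-cell arrays and 3.0, 1.2 and 2.8 on the 1-cell arrays. The part of other cells in the results above was not tested.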

How the data were processed

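The deposited values are linear signal intensities, 1 per probe set and array, from total RNA amplified in 2 rounds by in vitro transcription, per the labels. The deposited arrays share a mean of 149.96 to 149.97 over the middle 96% of probe sets, from which a common scaling was inferred. The software and its version are not given in the sources used here.

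Of 12488 probe sets, 66 controls were left out. Log2(signal + 11) was fitted for all 17 arrays with a mean per stage in limma 3.58.1 (R 4.3.3, lmFit, eBayes with an intensity trend), with p-values adjusted by Benjamini-Hochberg over 12422 probe sets and no filter, and the procedure was checked on simulated data. Symbols came from the platform annotation, updated by Entrez ID through RefSeq (GRCm38.p6): 10833 probe sets had 1 symbol, 396 several and 1193 none. Each gene was read by its probe set of highest mean signal over all arrays. In 9614 probe sets the name carries no mark for shared or dropped probes.

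The comparison, the gene lists and the tests were chosen with earlier results of these data known. The genes named are the 30 largest rises and falls, the 15 largest with both means above the median of all values, up to 5 higher, 5 lower and 5 uncalled members of every list, landmark genes of this stage, markers of other cells, genes with opposed probe sets and the steadiest bright genes. The labels give a replicate number but no pairing, and none was fitted in the main test. Deviations from the stage means correlated at -0.0021, -0.0127 and 0.0637 for equal numbers and at -0.0466 to 0.0576 for unequal ones. Such values cannot show whether samples were handled together. Normalization, offset, filter, trend, weights, arrays fitted and single arrays left out were varied.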

Additional observations from a re-analysis of the deposited data

How the results depend on the processing

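In the 19 alternatives with a count of probe sets the number of called probe sets kept within 1.5 times of 3851, and so did the number higher. The number lower did not under 2 of them, at 2721 probe sets and 2020 genes with median centring and 795 and 631 with the spike scaling, and the cause was not tested. Averaging the probe sets of each gene gave 1589 genes higher and 1300 lower. Leaving out 1 array gave 3369 to 3747 called probe sets, 1917 to 2165 higher and 1433 to 1613 lower, and 1390 to 1565 genes higher and 1141 to 1278 lower. With the replicate number as a block 3855 probe sets were called, 2175 higher and 1680 lower, and no call of a named gene changed. Of 255 genes named, 219 were called, and 204 of these kept call and direction in every alternative that included them. Without 1 array 8 lost their call (Arg2, Btg4, Ltf, Med27, Med28, Rpl13a, Sox17 and Taf1a), and with the spike scaling also Bmp15 (adjusted p = 0.133 by limma), Cldn4 (0.0717), Nelfa (0.109) and Zp1 (0.165). With only the 6 arrays of the 2 stages fitted, Btg4 (0.0742), Cldn4 (0.0784) and Med28 (0.072) were not called. That fit called 3537 probe sets, 2021 higher and 1516 lower. Averaging the probe sets of a gene turned the direction of Noct (-0.10) and Rbm39 (0.96), left Pttg1 uncalled (-0.09) and called Rpl22 (-1.25), Gnai2 (-0.53) and Kpna3 (0.45), by the gene's further probe sets. Other genes given as not called passed the threshold in some settings. These were Aurka (-0.63), Ccnt1 (-0.58), Dppa3 (-0.59), Polr2a (-0.58) and Rrm2 (-0.59) with median centring, Ccnt1 (-0.59), Gmnn (0.50) and Hprt (0.84) after quantile normalization, Rrm2 (-0.37) and Rps29 (0.57) with array weights, Rps29 (0.48) with 1 filter and Hprt with 3 filters and without 2-cell array 1.

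Of 45 list medians some near 0 changed sign with the scaling. With the spike scaling these were 10: maternal effect genes, nuclear transport, redox defence, histone chaperones, chromatin remodelling, histone-modifying enzymes, cell cycle control and the cumulus, blood and oviduct markers. With median centring they were 13: mitochondrial ribosomal proteins, initiation factors, translation elongation, tRNA synthetases, splicing factors, proteasome, heat shock proteins, polyamine synthesis, oxidative phosphorylation, autophagy, apoptosis and the sperm and late embryo markers. After quantile normalization they were 8: mitochondrial ribosomal proteins, translation elongation, tRNA synthetases, splicing factors, proteasome, polyamine synthesis, redox defence and the sperm markers. Of the 5335 probe sets with both means under 41.1, 399 were called, so dim signals limit what can be seen there.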
